A study of Sus scrofa with 11 samples.

Results

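SLC19A2 and MTR are the genes of vitamin use followed here across 11 pig muscles. SLC19A2 encodes a thiamine (vitamin B1) transporter of the cell membrane, and MTR encodes methionine synthase, an enzyme that depends on cobalamin (vitamin B12). They are 2 of the 25322 gene IDs in the deposited table, found by symbol: SLC19A2 is ENSSSCG00000006290 and MTR is ENSSSCG00000010143. They were chosen by their CPM values (normalised read counts), which differed between the groups of pigs in an earlier pass over the same data. Their group difference is therefore given as a description, without a test.

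Muscle RNA (longissimus lumborum, along the back) was sequenced from 11 female pigs aged 23 weeks, which the histology of that muscle had placed in groups. In the 7 pigs of the group fibre1, slow oxidative type I fibres exceeded 17% and fast glycolytic type IIB fibres stayed under 70%. In the 4 pigs of the group fibre2B, type I fibres were under 8% and type IIB fibres over 70%. The labels name no treatment and no sequencing batch. Each pig has 1 column of estimated counts, with 14832736 to 36374829 counts in all. The design text mentions 5 technical repetitions of the sequencing, and the sources used here do not say whether these were pooled into that column.

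Thiamine enters cells through SLC19A2 and its relative SLC19A3 and becomes the cofactor thiamine diphosphate. In mitochondria pyruvate dehydrogenase, oxoglutarate dehydrogenase and the branched-chain ketoacid dehydrogenase need it to feed the citrate cycle. Methionine synthase moves a methyl group from methyltetrahydrofolate to homocysteine by way of its bound cobalamin. That step yields methionine for S-adenosylmethionine, the methyl donor of most methylation reactions, and frees tetrahydrofolate for one-carbon metabolism.

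The muscle identity of the samples was checked on marker genes. The 10 fibre markers with an ID summed to 151498 to 308555 CPM (counts per 1000000 library counts, scaled by TMM factors) in fibre1 and 138263 to 172749 CPM in the fibre2B pigs. The 6 slow-fibre markers with an ID summed to 10329 to 42001 CPM in the fibre1 pigs and 2715 to 10466 CPM in the fibre2B pigs. These sums overlapped narrowly. Of the 6, edgeR called 1 higher in fibre1 (MYH6), beside 4.38% of all genes tested. MYH7 and MYL2 were among the slow-fibre markers with no named ID. CKM, MB and TTN were among 6 fibre markers with no named ID. Fibre1 pigs 5 and 6 stood apart: their 10 most abundant nuclear genes took 45.2% and 44.1% of the counts, against 30.0% to 36.8% in the other fibre1 pigs and 31.9% to 36.1% in the fibre2B pigs.

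SLC19A2 was lower in every fibre1 muscle than in any fibre2B muscle. It had 3.67 CPM in the lowest fibre1 pig (pig 1), a median of 7.12 CPM and 10.3 CPM in the highest (pig 17), against 17.0, 31.8, 17.8 and 11.7 CPM in fibre2B pigs 10, 11, 14 and 16. The groups did not overlap, but the gap was narrow, and fibre2B pig 11 stood well above the other fibre2B pigs. The means were 6.72 ± 2.14 CPM over the fibre1 pigs (SD, n = 7) and 19.6 ± 8.58 CPM over the fibre2B pigs (n = 4), with a log2 fold change of -1.54 ± 0.28 (fibre1 minus fibre2B, SE), or 2.91-fold higher in fibre2B. Of the 11329 genes tested, 95 had a more negative log2 fold change than SLC19A2 and 368 than MTR. Nothing is read from these ranks, since the same contrast selected both genes. Over all genes tested the groups did not overlap in 7.55%, and in 4.15% every fibre2B pig was the higher.

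MTR showed the same order of groups with less spread. It had 4.80 CPM in the lowest fibre1 pig (pig 6), a median of 6.64 CPM and 7.52 CPM in the highest (pig 17), against 12.9, 12.5, 13.3 and 10.1 CPM in fibre2B pigs 10, 11, 14 and 16. The groups did not overlap, and 3 of the 4 fibre2B pigs lay within 1 CPM of each other. The means were 6.19 ± 1.08 CPM over the fibre1 pigs (SD, n = 7) and 12.2 ± 1.43 CPM over the fibre2B pigs (n = 4), with a log2 fold change of -0.98 ± 0.16 (SE), or 1.97-fold higher in fibre2B. By edgeR's quasi-likelihood test at a Benjamini-Hochberg adjusted p of 0.05, 9.01% of the 11329 genes tested were called, 4.38% higher in fibre1 and 4.63% higher in fibre2B. Nothing is read from these shares for SLC19A2 and MTR, which this contrast selected.

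**Figure D1:**
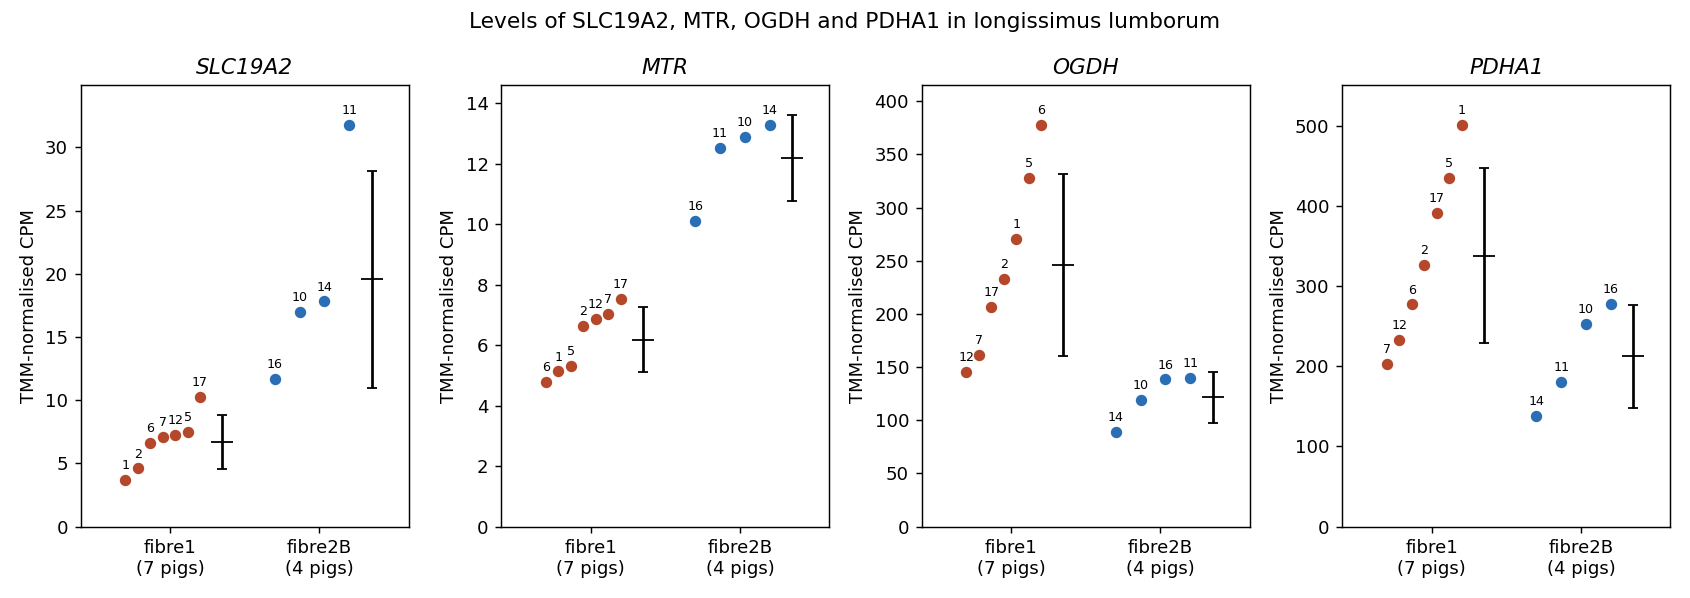
TMM-normalised CPM of SLC19A2, MTR, OGDH and PDHA1 (y axes) in each pig, with fibre1 (7 pigs) left of fibre2B (4 pigs); points carry pig numbers and black bars are mean ± SD. SLC19A2 and MTR lie lower in all fibre1 pigs, OGDH lies higher in all fibre1 pigs on this scaling, and PDHA1 overlaps.

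Both genes had few reads. SLC19A2 had 75 to 282 counts per pig in fibre1 and 224 to 733 in fibre2B, and MTR had 83 to 267 in fibre1 and 194 to 289 in fibre2B. A Poisson error is 11.5% at the smallest SLC19A2 count and 11.0% at the smallest MTR count, and it covers counting error only. The spread between pigs was larger: the coefficient of variation of SLC19A2 was 31.8% in fibre1 and 43.9% in fibre2B, and that of MTR 17.4% in fibre1 and 11.7% in fibre2B. The biological coefficient of variation estimated by edgeR was 32.5% for SLC19A2 and 19.1% for MTR, around a common value of 29.8%.

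The groups stayed apart under each of the 3 scalings tried (TMM, RLE and total counts). With total counts as the only scaling, SLC19A2 ran from 3.77 to 9.85 CPM in the fibre1 pigs, and from 12.7 to 36.2 CPM in the fibre2B pigs, and MTR from 3.73 to 8.33 CPM in the fibre1 pigs, and from 11.0 to 15.8 CPM in the fibre2B pigs. Leaving out 1 pig at a time moved the log2 fold change of MTR between -1.05 and -0.92. That of SLC19A2 ran from -1.72 without fibre2B pig 16 to -1.20 without fibre2B pig 11, its highest pig. With the share of the 10 most abundant nuclear genes as a covariate the log2 fold changes were -1.65 for SLC19A2 and -0.92 for MTR, and without fibre1 pigs 5 and 6 they were -1.57 and -0.87.

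**Figure D2:**
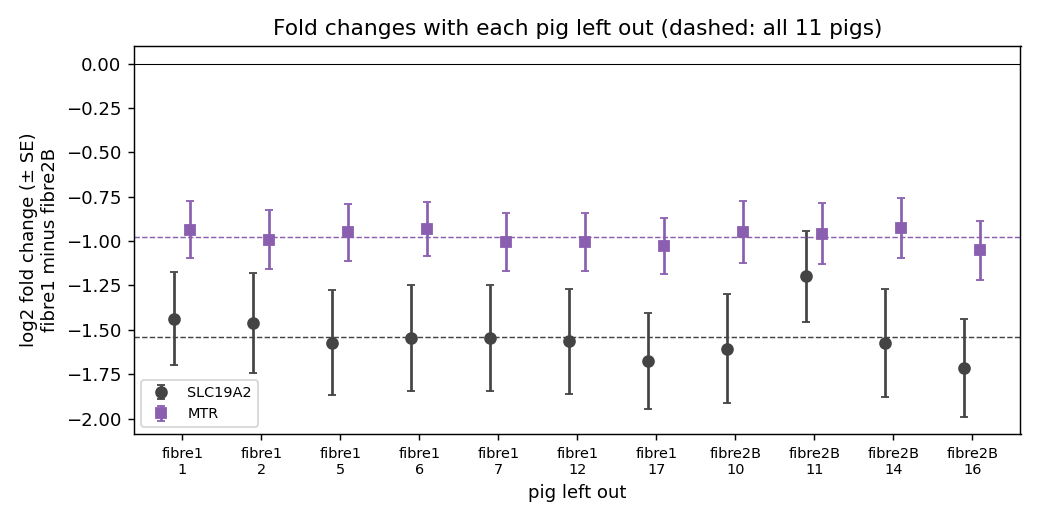
Log2 fold change of SLC19A2 (circles) and MTR (squares), fibre1 minus fibre2B with SE bars (y axis), with each pig left out in turn (x axis); dashed lines are the values with all 11 pigs. SLC19A2 ranges from -1.72 to -1.20 and MTR from -1.05 to -0.92. The groups did not overlap in either gene, so values below 0 were bound to follow.

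Each gene has a single isoform row with counts identical to its own in all 11 pigs, ENSSSCT00000006894 for SLC19A2 and ENSSSCT00000011105 for MTR. The isoform table pairs no isoform with a gene, so this match rests on the counts. With the factors of the isoform table the log2 fold changes were -1.54 ± 0.28 for SLC19A2 and -0.97 ± 0.15 for MTR (SE). The matched row holds all counts of its gene, so no share of isoforms can be compared. No other gene row had counts identical to those of either gene.

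Counts of genes set against each other within a pig do not depend on the scaling. SLC19A2 had 0.693 to 1.40 counts per count of MTR in fibre1, against 1.32, 2.54, 1.34 and 1.15 in fibre2B pigs 10, 11, 14 and 16. This ratio overlapped between the groups, and fibre2B pig 11 alone lay above the fibre1 range. SLC19A2 had 1.36 to 4.98 counts per 100 counts of OGDH in fibre1 and 8.43 to 22.7 in fibre2B. Per 100 counts of PDHA1 it had 0.732 to 3.51 in fibre1 and 4.20 to 17.6 in fibre2B, so neither of these ratios overlapped. SLC19A2 was chosen for its group difference, which these ratios carry, so they are a description and nothing further is read from them.

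Other cell types in the tissue were followed by their markers, since in bulk muscle fewer cells of a type and less RNA per cell cannot be told apart. The 7 fibroblast and matrix markers with an ID summed to 478 to 986 CPM in the fibre1 pigs and 756 to 1459 CPM in the fibre2B pigs, and DCN, LUM and FAP of the 6 tested were called higher in fibre2B (limma-voom also called 3 of the 6). Of all genes tested, edgeR called 4.63% higher in fibre2B. The 3 blood markers with an ID summed to 137 to 467 CPM in the fibre1 pigs and 423 to 955 CPM in the fibre2B pigs, and HBB of the 2 tested was called higher in fibre2B. The 7 immune markers with an ID summed to 5.43 to 17.0 CPM in the fibre1 pigs and 11.9 to 30.3 CPM in the fibre2B pigs, with 0 of 6 called by edgeR, 2 at an unadjusted p under 0.05, and 0 by DESeq2 and limma-voom. The 6 endothelial markers with an ID summed to 72.4 to 144 CPM in the fibre1 pigs and 86.1 to 127 CPM in the fibre2B pigs, and these ranges overlapped. Of these 6, edgeR called 0, with 2 at an unadjusted p under 0.05, while DESeq2 called 2 and limma-voom 0. Over all genes, 3272 of the 11329 tested by edgeR were at an unadjusted p under 0.05, and DESeq2 called 1759. DESeq2 filtered low counts by its own rule. Here and below its calls are therefore not a share of the 11329 genes, and its own share is not given. The 8 smooth muscle and pericyte markers with an ID summed to 133 to 229 CPM in the fibre1 pigs and 143 to 184 CPM in the fibre2B pigs, with a median log2 fold change of 0.24. The 5 adipocyte markers with an ID summed to 15.0 to 36.6 CPM in the fibre1 pigs and 19.3 to 24.7 CPM in the fibre2B pigs, with a median of 0.35. The 5 satellite cell markers with an ID summed to 33.3 to 57.8 CPM in the fibre1 pigs and 43.4 to 72.4 CPM in the fibre2B pigs, with a median of -0.28. The sums of these 3 lists overlapped, and edgeR called 1 gene in each higher in fibre2B (KCNJ8, RBP4 and VCAM1). In the smooth muscle and adipocyte lists that was against the sign of the list median. DESeq2 called 2 smooth muscle, 1 adipocyte and 1 satellite cell markers, while limma-voom called 0 in each list. Nerve and Schwann cell markers summed to 3.06 to 10.4 CPM in the fibre1 pigs and 5.09 to 10.4 CPM in the fibre2B pigs. The fibroblast, blood, immune and nerve sums overlapped between the groups as well. No marker with an ID was at 0 in every pig. The part of these cells in the levels of SLC19A2 and MTR was not tested.

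The next comparison asked whether the other genes of thiamine handling differ between the groups. SLC19A3, the second thiamine transporter, had 7 counts over all 11 pigs and did not pass the filter on low counts; it was named after its value was seen. THTPA, which hydrolyses thiamine triphosphate, was higher in fibre1: 12.2 ± 1.07 CPM over the fibre1 pigs (SD, n = 7) and 7.52 ± 1.23 CPM over the fibre2B pigs (n = 4), and its log2 fold change was 0.69 ± 0.14 (edgeR adjusted p = 0.019). It ran from 10.7 to 13.9 CPM in fibre1, against 7.43, 9.10, 7.44 and 6.10 CPM in fibre2B pigs 10, 11, 14 and 16, so the groups did not overlap. Its call was lost without fibre2B pig 14 or pig 16 (edgeR adjusted p = 0.052 to 0.064) and, like every other call named below, without fibre1 pigs 5 and 6 together. Calls over all genes moved too, from 1021 to 0 and 300 without these fibre2B pigs and to 28 without the 2 fibre1 pigs. Without fibre1 pig 12 they rose to 1548. Calls lost or gained in such leave-outs, here and below, are thus not particular to the gene named. Among the thiamine handling genes named here, the transporter SLC19A2 was lower in fibre1 and THTPA was higher.

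Of the enzymes that use thiamine diphosphate, 8 were tested and 1 was called (12.5%, against 9.01% of all genes tested). OGDH, the thiamine-dependent subunit of oxoglutarate dehydrogenase, ran from 146 to 378 CPM in fibre1 with a median of 233 CPM, against 119, 140, 88.8 and 138 CPM in fibre2B pigs 10, 11, 14 and 16. Its log2 fold change was 1.02 ± 0.26 (SE; edgeR adjusted p = 0.033), and with total counts as the only scaling its groups overlapped. That call was lost without any of fibre1 pigs 1, 2, 5 and 6 and fibre2B pigs 10, 14 and 16 (edgeR adjusted p = 0.055 to 0.112) and with the covariate (0.059). PDHA1, a subunit of the thiamine-dependent pyruvate dehydrogenase, ran from 203 to 501 CPM in fibre1 with a median of 326 CPM. In fibre2B pigs 10, 11, 14 and 16 it had 253, 180, 139 and 278 CPM. The groups overlapped, and its log2 fold change of 0.67 ± 0.27 did not pass (edgeR adjusted p = 0.115). The 2 thiamine-binding subunits of the branched-chain enzyme had opposite signs, with BCKDHA at 0.55 ± 0.20 (edgeR adjusted p = 0.099) and BCKDHB at -0.44 ± 0.17 (0.112), and neither passed. BCKDHA passed without fibre2B pig 11 (edgeR adjusted p = 0.048).

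Of 11 tested partners and regulators of these complexes edgeR called 0, against 9.01% of all genes tested. At an unadjusted p under 0.05 there were 4 of the 11, beside 3272 of the 11329 genes tested. DESeq2 called 3 of the 11 (1759 over all genes) and limma-voom 0 of the 11 (863 over all genes). The DESeq2 total is not out of these 11329 genes, so no share stands beside its 3 calls. PDK4, a kinase that switches pyruvate dehydrogenase off, had 42.7 ± 39.4 CPM in the fibre1 pigs and 252 ± 305 CPM in the fibre2B pigs (log2 fold change -2.56 ± 0.77, edgeR adjusted p = 0.054). Without fibre2B pig 14, which had 707 CPM of it, the log2 fold change of PDK4 was -1.23. PDK2, a kinase of the same family, had 54.1 ± 13.2 CPM in the fibre1 pigs and 34.2 ± 9.66 CPM in the fibre2B pigs (0.66 ± 0.21, edgeR adjusted p = 0.067). BCKDK, which inhibits the branched-chain enzyme, had 117 ± 27.1 CPM in the fibre1 pigs and 81.5 ± 11.6 CPM in the fibre2B pigs (0.52 ± 0.18, edgeR adjusted p = 0.083). PDK4 and BCKDK passed without fibre1 pig 12, and PDK2 without fibre1 pig 7 (edgeR adjusted p = 0.026 to 0.046). Over all the thiamine genes other than SLC19A2, 2 of 22 tested were called (9.09%, against 9.01% of all genes tested), both higher in fibre1. Their median log2 fold change was 0.0407, beside 0.0073 over all genes tested. The share called was close to that of all genes.

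**Figure D3:**
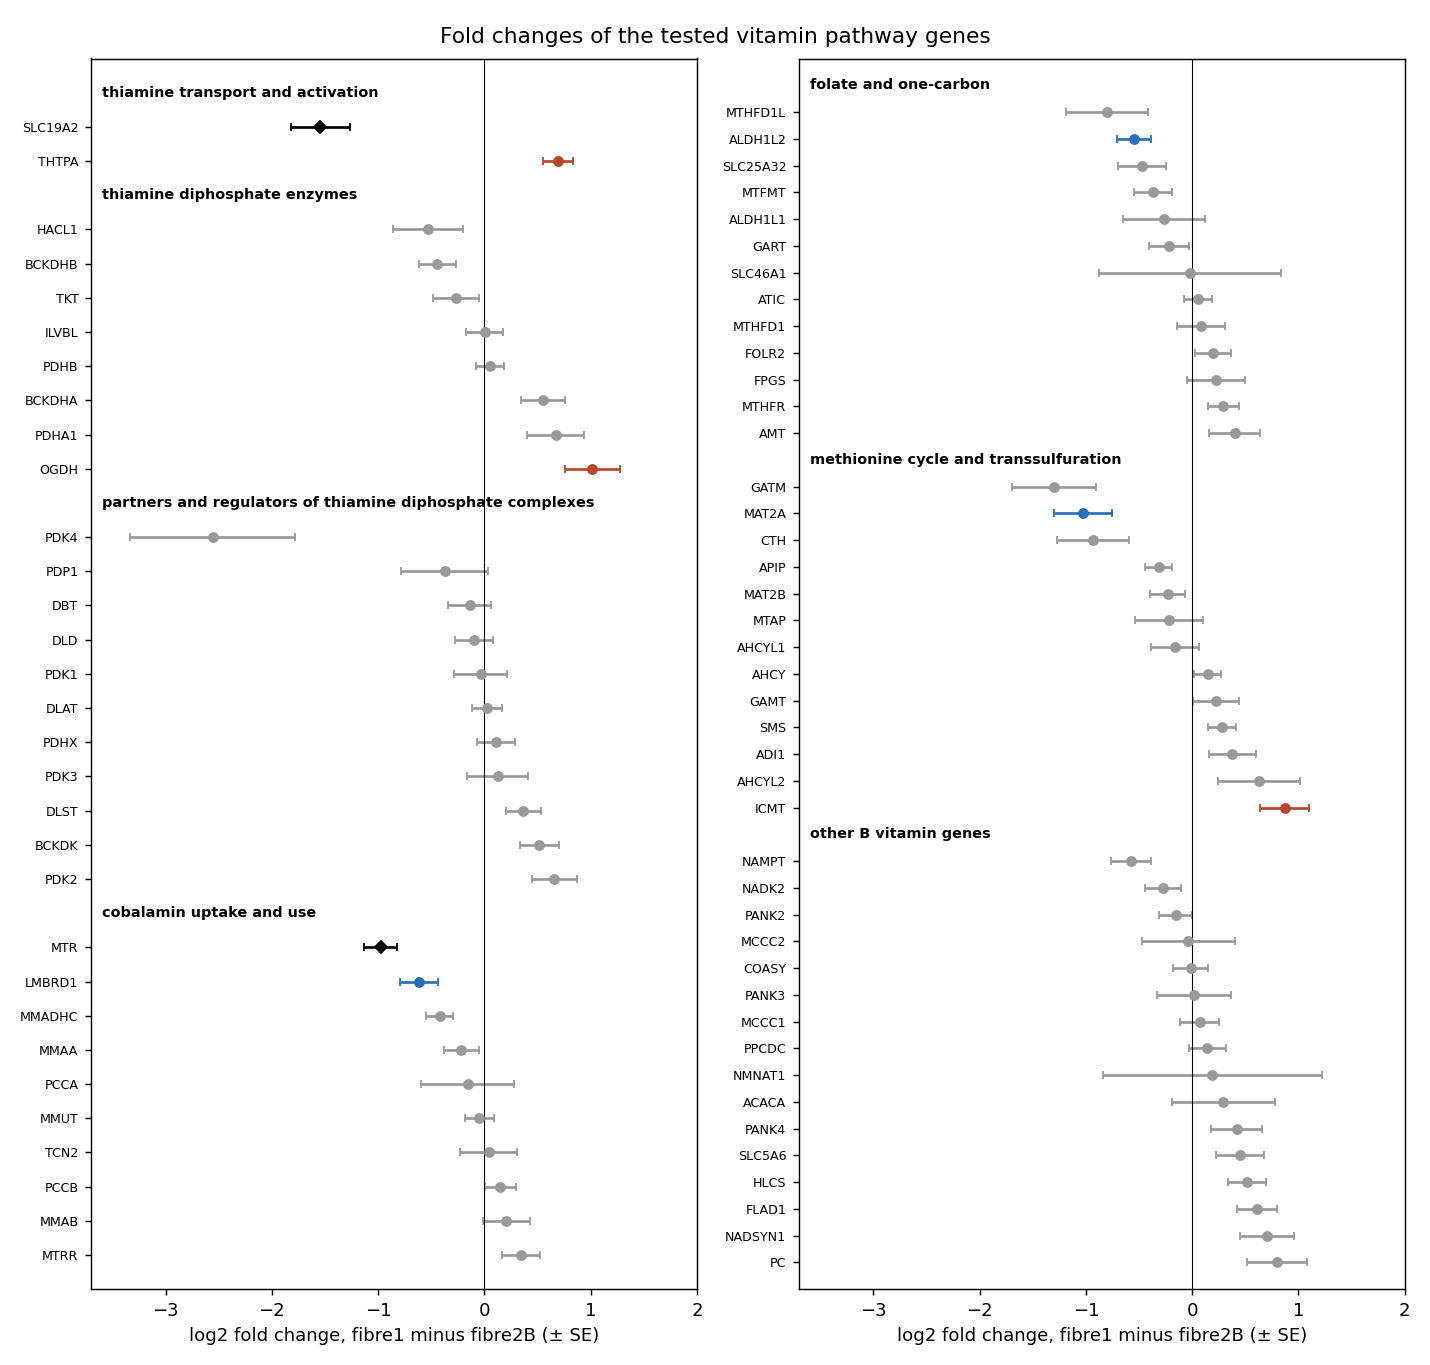
Log2 fold change, fibre1 minus fibre2B with SE bars (x axis), of tested genes of the thiamine, cobalamin, folate, methionine and other B vitamin lists (y axis). Black diamonds are SLC19A2 and MTR. Red and blue points are genes called higher in fibre1 and in fibre2B by edgeR at an adjusted p of 0.05. Grey points did not pass. Among the red and blue points, OGDH at 1.02 and MAT2A at -1.03 are the farthest from 0.

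The genes around methionine synthase were compared in the same way. MTRR, the reductase that keeps the cobalamin of methionine synthase active, was named after its value was seen and had the opposite sign to MTR. It had 20.2 ± 4.52 CPM in the fibre1 pigs and 15.8 ± 0.99 CPM in the fibre2B pigs (log2 fold change 0.35 ± 0.18, edgeR adjusted p = 0.213), and it passed without fibre1 pig 12 (0.048). LMBRD1, which takes part in the export of cobalamin from lysosomes, was lower in fibre1: it ran from 11.2 to 19.1 CPM in fibre1 with a median of 14.9 CPM, against 19.3, 30.6, 22.3 and 20.4 CPM in fibre2B pigs 10, 11, 14 and 16, so the groups lay side by side with almost no gap. Its log2 fold change was -0.62 ± 0.18 (SE; edgeR adjusted p = 0.045), and the call held in 2 of 11 leave-outs of 1 pig, those without fibre1 pig 7 or 12. In the other 9 the edgeR adjusted p was 0.0501 to 0.122, and the call was also lost with no filter, with limma-voom and with the covariate. MMADHC, which directs cobalamin to its enzymes, had 58.2 ± 8.56 CPM in the fibre1 pigs and 77.8 ± 1.14 CPM in the fibre2B pigs (-0.42 ± 0.13, edgeR adjusted p = 0.054), and it passed without fibre1 pig 7 or 12 (0.048 and 0.025). Its groups did not overlap, with 72.0 CPM in the highest fibre1 pig and 76.8 CPM in the lowest fibre2B pig.

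Downstream of methionine, MAT2A, which makes S-adenosylmethionine, was lower in fibre1. It ran from 36.0 to 106 CPM in fibre1 with a median of 68.7 CPM, against 150, 133, 172 and 148 CPM in fibre2B pigs 10, 11, 14 and 16, so the groups did not overlap. Its log2 fold change was -1.03 ± 0.27 (edgeR adjusted p = 0.039), a call lost without any of fibre1 pigs 1, 2 and 7 and of the fibre2B pigs (0.051 to 0.121). ICMT, a methyltransferase of prenylated proteins that uses S-adenosylmethionine, was higher in fibre1 with 40.2 ± 12.7 CPM, against 22.0 ± 4.02 CPM in the fibre2B pigs (0.87 ± 0.23, edgeR adjusted p = 0.039). The groups overlapped narrowly, with 26.7 CPM in the lowest fibre1 pig and 27.7 CPM in the highest fibre2B pig. The ICMT call was lost without any of fibre1 pigs 2, 5 and 6 and fibre2B pigs 10, 14 and 16 (edgeR adjusted p = 0.067 to 0.112) and with the covariate. GATM, which catalyses the first step of creatine synthesis, had 1.04 ± 0.47 CPM in the fibre1 pigs and 2.58 ± 1.59 CPM in the fibre2B pigs (-1.30 ± 0.40, edgeR adjusted p = 0.057), and it passed without fibre1 pig 7 or fibre2B pig 16 (0.033 and 0.045).

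Of 13 folate and one-carbon genes tested, ALDH1L2, a mitochondrial dehydrogenase of formyltetrahydrofolate, was lower in fibre1, with 8.97 ± 0.97 CPM in the fibre1 pigs and 13.1 ± 3.35 CPM in the fibre2B pigs (log2 fold change -0.55 ± 0.16, edgeR adjusted p = 0.048). That call held only without fibre1 pig 17 among the leave-outs of 1 pig, and in the other 10 the adjusted p was 0.051 to 0.168. It was also lost with RLE factors, with no filter, with limma-voom and with the covariate. MTHFD1L, an enzyme of mitochondrial formate production, had -0.80 ± 0.38 (edgeR adjusted p = 0.185), and -1.14 without fibre1 pig 12, where it passed (0.039). SLC25A32, a mitochondrial carrier of folate, had -0.47 ± 0.23 (edgeR adjusted p = 0.186). Over the cobalamin, folate and methionine genes other than MTR, 4 of 35 tested were called (11.4%, against 9.01% of all genes tested), 1 higher in fibre1 and 3 higher in fibre2B. Their median log2 fold change was -0.0467, beside 0.0073 over all genes. Of 17 tested genes of the other B vitamins edgeR called 0, against 9.01% of all genes tested. At an unadjusted p under 0.05 there were 5 of the 17, beside 3272 of the 11329 genes tested. DESeq2 called 4 of the 17 (1759 over all genes) and limma-voom 0 of the 17 (863 over all genes). The DESeq2 total is again not out of the 11329 genes. The 3 with the smallest p were FLAD1, which makes FAD from riboflavin phosphate (0.61 ± 0.18, edgeR adjusted p = 0.054), NAMPT of NAD salvage (-0.58 ± 0.19, 0.067) and HLCS, which attaches biotin to carboxylases (0.51 ± 0.18, 0.083). All 3 passed without fibre1 pig 12 (edgeR adjusted p = 0.021 to 0.046).

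The relation of SLC19A2 to the thiamine-dependent enzymes was then measured across pigs. SLC19A2 separates the groups completely, so a correlation pooled over all pigs would restate that difference, and none is given. Within the 7 fibre1 pigs Pearson's r of log2(CPM + 1) was -0.23 between SLC19A2 and OGDH (two-sided exact permutation p = 0.608, 0.608 adjusted over 3 relations) and Spearman's rho was -0.29 (exact p = 0.556, adjusted 0.834). For SLC19A2 and PDHA1, r was -0.29 (exact permutation p = 0.529, adjusted 0.608) and rho -0.11 (exact p = 0.840, adjusted 0.840). Neither relation was detectable with 7 pigs. Leaving out fibre1 pigs 1 and 2, the farthest from the median of SLC19A2, gave r = -0.21 for OGDH and 0.55 for PDHA1, over 5 pigs.

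The value for OGDH moved with the scaling, while none of its settings passed. With total counts as the only scaling r was -0.76 (exact permutation p = 0.053, adjusted 0.158), given the share of the 10 most abundant nuclear genes it was -0.64 (permutation p = 0.110, adjusted 0.165), and without fibre1 pigs 5 and 6 it was -0.63 over 5 pigs. On the TMM scaling pigs 5 and 6 had 7.48 and 6.64 CPM of SLC19A2, neither the lowest nor the highest of fibre1. On that scaling they had the highest OGDH levels, 328 and 378 CPM. Their TMM factors, 0.718 and 0.779, were the lowest of all pigs, which raises their scaled values. With total counts as the only scaling the highest OGDH level in fibre1 was 294 CPM. Of PDHA1 the sign rested on fibre1 pig 1, which had the least SLC19A2 and the most PDHA1 (501 CPM): without it r was 0.22. In the 4 fibre2B pigs, too few for a correlation, pig 11 had the most SLC19A2 (31.8 CPM) with the most OGDH (140 CPM), and pig 16 had the least SLC19A2 (11.7 CPM) with 138 CPM of OGDH.

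SLC19A2 and MTR were related to each other in the same way. Within fibre1 r was 0.47 (two-sided exact permutation p = 0.299, adjusted 0.608 over the 3 relations) and rho 0.61 (exact p = 0.167, adjusted 0.50). Without pigs 1 and 2 it was 0.62 over 5 pigs, without pigs 5 and 6 it was 0.88 over 5 pigs, and leaving out 1 pig gave 0.21 (without pig 17) and 0.25 (without pig 1) to 0.63 (without pig 2). Given the share of the 10 most abundant nuclear genes r was 0.74 (permutation p = 0.056, adjusted 0.165). Fibre1 pig 17 had the highest level of both genes, and fibre2B pig 16 had the lowest of its group in both. As deviations from the group means over all 11 pigs r was 0.49 (exact permutation p = 0.129, adjusted 0.387), against -0.12 for OGDH and -0.38 for PDHA1 with SLC19A2.

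**Figure D4:**
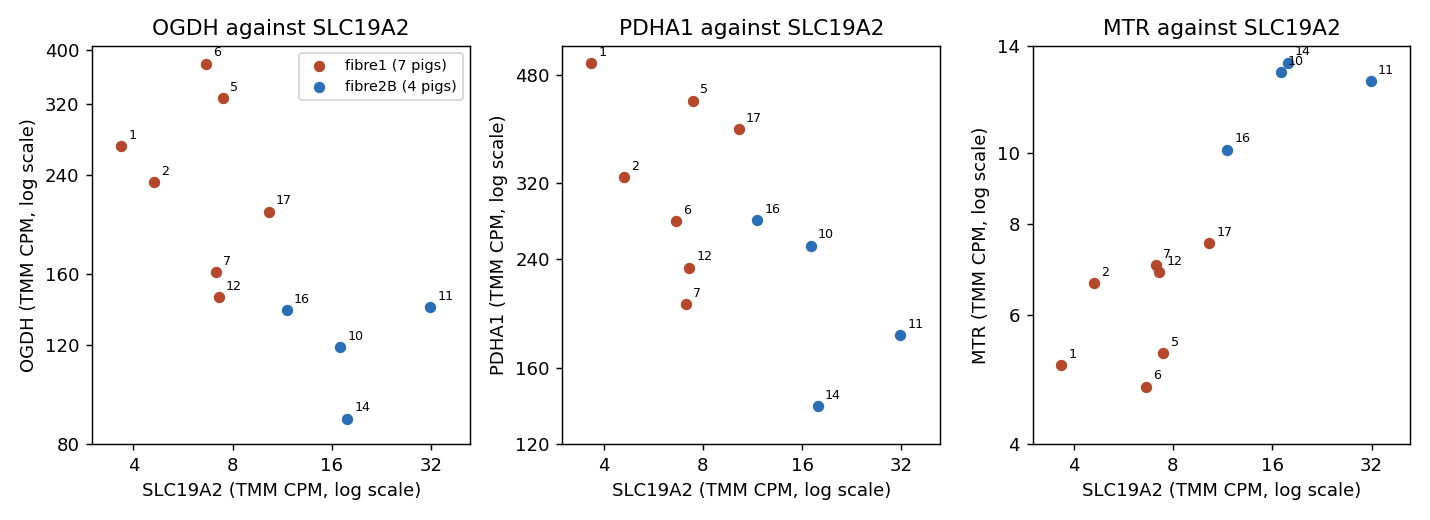
OGDH, PDHA1 and MTR (y axes) against SLC19A2 (x axes), all TMM-normalised CPM on log axes, 1 point per pig with its number, fibre1 red and fibre2B blue. Within fibre1 the points show no relation that passed a test (r = -0.23, -0.29 and 0.47).

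The genes whose levels were most like those of SLC19A2 and MTR over the 11 pigs were taken from 7767 tested genes with a symbol, by Pearson's r of log2(CPM + 1). All of these pigs share the group difference, so r is given also for deviations from the group means, as a description. The deviations come from the same values that ranked the genes, so that choice also favours a high r for them. For SLC19A2 the first 5 were TMEM39A (r = 0.96, 0.88 for deviations), ARID2, a subunit of a SWI/SNF chromatin remodelling complex (0.95 and 0.82), the lectin-like receptor gene CLEC2B (0.93 and 0.77), FGFR1OP2 (0.92 and 0.71) and NR3C1, the glucocorticoid receptor (0.92 and 0.79). CLEC2B had a larger fold than SLC19A2, with 1.14 ± 0.44 CPM in the fibre1 pigs and 4.17 ± 2.17 CPM in the fibre2B pigs, a log2 fold change of -1.86 ± 0.36, while TMEM39A had -0.50 ± 0.15, ARID2 -0.55 ± 0.15, FGFR1OP2 -0.94 ± 0.16 and NR3C1 -0.40 ± 0.14.

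For MTR the first 5 were EPB41L2, a membrane skeleton protein (r = 0.97, 0.91 for deviations), RSRC2 (0.96 and 0.78), SEC11A, a subunit of the signal peptidase (0.96 and 0.80), ARV1 (0.96 and 0.79) and MAGT1 (0.96 and 0.82). Their log2 fold changes lay between -0.80 ± 0.16 for MAGT1 and -0.73 ± 0.13 for RSRC2, smaller than that of MTR. EPB41L2 had 22.5 ± 4.07 CPM in the fibre1 pigs and 37.7 ± 6.33 CPM in the fibre2B pigs. Within fibre1 alone r ran from 0.61 (FGFR1OP2) to 0.85 (ARID2) for the genes of SLC19A2. For those of MTR it ran from 0.82 (ARV1) to 0.94 (EPB41L2). No gene was among the first 5 of both.

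The genes next to each in the Sscrofa11.1 RefSeq table, another build used for names and order only, were looked up as well. F5 and CCDC181 flank SLC19A2 and RYR2 lies on one side of MTR, and none of these was tested. On the other side of MTR lies ACTN2, which encodes the sarcomeric protein alpha-actinin 2 and is abundant in muscle. It had 1289 ± 599 CPM in the fibre1 pigs and 773 ± 376 CPM in the fibre2B pigs (log2 fold change 0.74 ± 0.35, edgeR adjusted p = 0.183), opposite in sign to MTR. The labels do not say whether strand was used in counting.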

How the data were processed

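The deposited tables hold expected counts per gene and per isoform, which the authors gave as whole numbers without normalisation. Per the submitters' processing notes, the build was Sscrofa10.2 and the tools were STAR, RSEM, FastQC, CASAVA 1.8.2, DESeq2 and edgeR, without their roles or sequence. Replicate numbers in the titles tied columns to pigs, 0 columns were of other samples, and rounding changed no value. A table of gene IDs gave 11804 rows a symbol. The test was edgeR 4.0.16 under R 4.3.3 (TMM factors, filterByExpr, quasi-likelihood F test of the group, Benjamini-Hochberg over all 11329 genes tested). Standard errors are the absolute log2 fold change over the root of F. Correlations used all 5040 orders of the 7 fibre1 pigs. CPM cannot be compared between genes, since no transcript lengths were used.

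The members and lists were chosen with earlier results of these data known. The text names the called genes and the 3 smallest p of each list, the 5 genes most like each member, and their neighbours; 2 genes of the thiamine lists that this takes in are not reported here. Alternatives were RLE factors, no filter, DESeq2 1.42.0, limma-voom (limma 3.58.1), a covariate (the share of the 10 most abundant nuclear genes), and leaving out pigs. The pipeline was tested on simulated data. At 14832736 to 36374829 counts per pig, counting error was below the spread between pigs for both members. Each pig is a sample of its own in the labels.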

Additional observations from a re-analysis of the deposited data

Results flagged for a closer look

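In 66 sets of values (33 named genes in 2 groups) a single pig stood far from the rest of its group in 3, and chance alone flags about 1 in 20. PDK4 had 707 CPM in fibre2B pig 14, against 52.8 to 142 CPM in the other fibre2B pigs. MTHFD1L had 1.42 CPM in fibre1 pig 12, against 0.317 to 0.735 CPM in the other fibre1 pigs. TMEM39A, the gene most like SLC19A2, had 4.22 CPM in fibre1 pig 17, which also had the most SLC19A2 of its group, against 3.18 to 3.58 CPM in the other fibre1 pigs. SLC19A2 and MTR themselves had no such pig in either group.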

How the results depend on the processing

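The log2 fold changes of SLC19A2 and MTR over the 17 alternatives were -1.72 to -1.20 and -1.05 to -0.87. Both genes were chosen for this contrast and their groups did not overlap. Leaving out pigs was therefore bound to keep the direction, and nothing is read from it. The counts of called genes changed between settings, and the cause was not tested. Over all genes edgeR called 1021. DESeq2 called 1759, the covariate left 463, leaving out fibre1 pigs 5 and 6 left 28, and leaving out 1 pig gave 0 (without fibre2B pig 14, with 2436 at an unadjusted p under 0.05) to 1548 (without fibre1 pig 12). Without fibre1 pig 1, 2, 5 or 6 it was 459, 316, 454 or 478, and without fibre2B pig 10 or 16 it was 325 or 300. Of the 22 thiamine genes 2 were called, against 5 by DESeq2, 1 with the covariate, 0 without fibre1 pigs 5 and 6 (7 unadjusted) and 0 (without fibre2B pig 14 or 16, each with 6 unadjusted) to 4 with 1 pig left out. Of the 35 cobalamin, folate and methionine genes 4 were called, against 2 by limma-voom, 1 with the covariate, 0 without fibre1 pigs 5 and 6 (8 unadjusted) and 0 (without fibre1 pig 2 or fibre2B pig 10 or 14, with 7 to 9 unadjusted) to 6 with 1 pig left out. DESeq2 and limma-voom were not run with pigs left out. The correlation of SLC19A2 with PDHA1 in fibre1 changed sign without pig 1 (r from -0.60 without pig 17 to 0.22 without pig 1), and 0 of the 3 relations passed in any of 12 alternatives (adjusted p of 0.158 or more). No paired analysis was possible because the groups share no replicate number. No usage of isoforms was tested because the 1 isoform row matched to each gene holds all of its counts.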
